A study of Mus musculus with 2 samples.

Results

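Potassium channel genes were examined in P5424, a mouse T-cell line, on 2 one-colour Agilent arrays carrying 60-base probes. The family was chosen with earlier results of these data known. Its genes were taken by name, as every non-control probe whose gene name begins with Kcn followed by a subfamily letter. This gave 95 genes with 143 probes, out of 22221 named genes. The arrays held 55681 non-control probes in all, of which 24461 were not assigned to a named gene. Per the labels, both samples were untreated P5424 cells that lack Rag2, a subunit of the V(D)J recombinase, and the tumour suppressor P53, grown in RPMI1640 medium that held 2-mercaptoethanol at 0.1 mM and fetal bovine serum at 10%. The samples form 1 group, called replicate 1 and replicate 2, so there was no second condition to compare and no test between groups. Nothing in the labels tells if the samples were separate cultures or if the line is 1 clone, so the spread between the arrays may be technical.

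Potassium channels let potassium leave or enter the cell down its electrochemical gradient and so set the membrane potential. In T cells, the voltage-gated channel Kv1.3, encoded by Kcna3, and the calcium-activated channel KCa3.1, encoded by Kcnn4, are known for holding the membrane potential negative, which keeps the driving force for calcium entry through store-operated channels after antigen receptor engagement. Most other members of the family are best known from nerve, heart, muscle and epithelium. The comparison followed here was between these T-cell channels and the rest of the family.

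The probes that carry the findings are shown so that a reader can see what each value was measured on. Capitals mark runs searched for in every probe, namely the last 6 bases all A, 5 or more TG or GT pairs in a row, and the polyadenylation hexamers AATAAA or ATTAAA, all on the printed strand; the A run and a hexamer can overlap. Positions are those of the files on the mouse build mm9, and whether they fall in an exon, an intron or an untranslated region was not analysed here.
Kcna3 (chr3:106840925-106840984, + strand): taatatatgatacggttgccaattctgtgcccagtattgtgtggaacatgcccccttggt
Kcnn4 (chr7:25169184-25169782, + strand): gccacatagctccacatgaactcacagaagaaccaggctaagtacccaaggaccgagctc
Kcna4 (chr2:107138207-107138266, + strand): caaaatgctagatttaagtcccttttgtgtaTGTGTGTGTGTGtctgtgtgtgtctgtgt
Kcna6 (no mapped position): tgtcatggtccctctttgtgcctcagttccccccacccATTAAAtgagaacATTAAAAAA
Kcnh3 (chr15:99073172-99073231, + strand): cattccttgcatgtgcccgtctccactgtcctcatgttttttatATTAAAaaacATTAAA
Kcnh4 (chr11:100601716-100601775, - strand): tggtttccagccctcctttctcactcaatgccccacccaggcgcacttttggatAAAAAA
Kcnq1ot1 (chr7:150440140-150440199, - strand): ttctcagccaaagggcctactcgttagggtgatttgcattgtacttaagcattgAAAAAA

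The Kcna3 and Kcnn4 probes held none of the searched runs. The Kcna6 probe was the member probe without a mapped position, 1 of 143, against 1.01% of all probes. The 60 bases of the Kcnn4 probe spread over 599 bases of the genome, whereas the mapped probes of the other genes shown covered 60 bases each. Among the 27 probes of the family that were detected on both arrays, 3 ended in 6 A, those of Kcna6, Kcnh4 and Kcnq1ot1, against 0 of the 116 others, 1.65% of all detected probes and 1.19% of all probes. A TG run was found in 1 of the 27, the Kcna4 probe, and in 0.654% of all detected probes and 0.339% of all probes. Hexamers were found in 3 of the 27 and in 21 of the 116, against 16.6% of all detected probes and 13.7% of all probes. The median G and C content was 43.3% in the detected probes of the family, in its other probes and over all probes of the array. Whether these sequence features bear on the signals was not tested.

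Both T-cell channels were detected, and most of the family was not. A gene was called detected when the scanner software marked at least 1 of its probes well above background on both arrays. By this rule 23 of the 95 potassium channel genes were detected (24.2%), against 51.7% of all named genes and 51.9% of the named genes outside the family. A further 4 passed on 1 array, against 2.57% of all named genes, and 68 passed on neither. In RNA of a whole culture, a low signal in every cell and a higher signal in few cells cannot be told apart. Apart from Kcna3 and Kcnn4, 21 of 93 members were detected (22.6%). By probe, 27 of 143 were detected, against 40.1% of all probes, those without a named gene included. Genes with more probes have more chances to be detected, and with all named genes weighted to the probe numbers of the family the share was 53.6%. Within genes of 1 probe, 11 of 56 members were detected (19.6%), against 45.1% of all such genes. Within genes of 2 probes, 9 of 32 members were detected (28.1%), against 64.4%, and within genes of 3 or more, 3 of 7 (42.9%), against 72.2%. The share of the family was thus below that of all genes in each class, and no test was run, since genes are not replicates. Calcium channel genes whose names begin with Cacn, auxiliary subunits included, had 7 of 26 detected (26.9%), and voltage-gated sodium channel genes of the Scn family, also with their auxiliary subunits, 7 of 14 (50%).

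**Figure D1:**
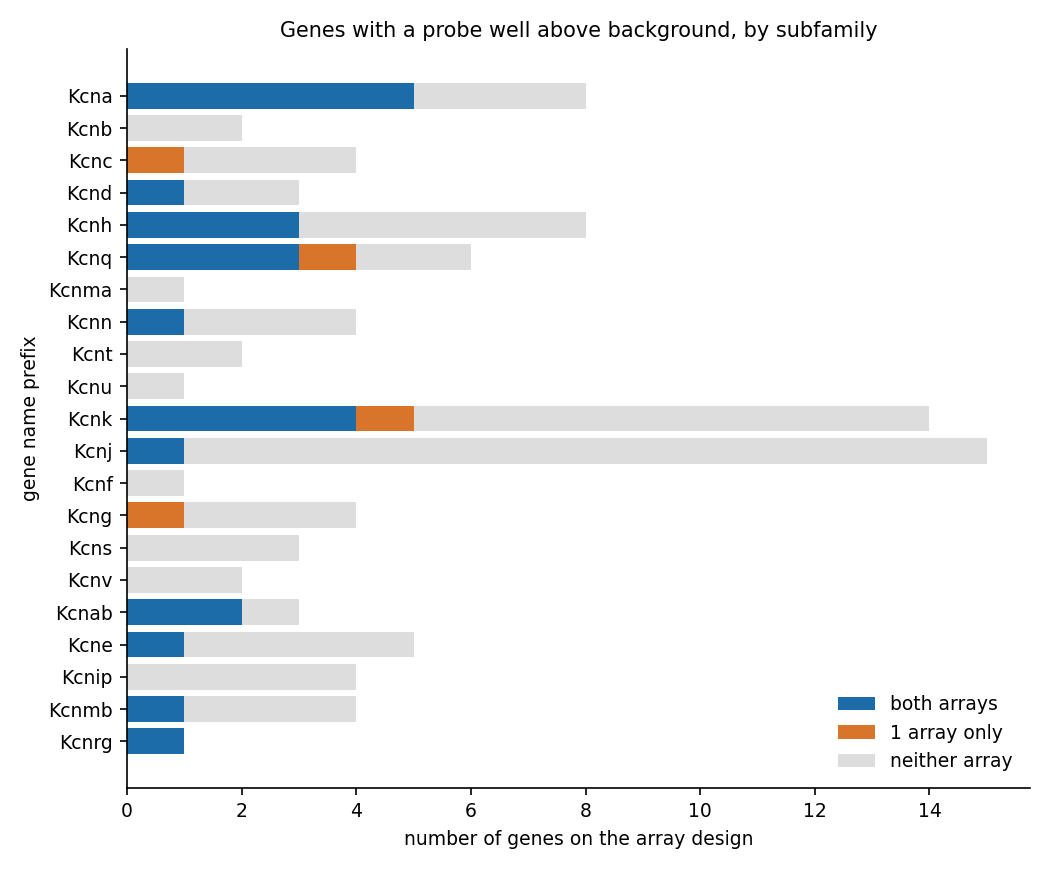
Number of potassium channel genes (x axis) by gene name prefix (y axis), split into genes with a probe well above background on both arrays, on 1 array only, or on neither. Kcna holds 5 detected genes of 8, whereas Kcnj holds 1 of 15 and Kcnip 0 of 4; the Kcnq bar includes the non-coding Kcnq1ot1.

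Kcna3 was well above background on both arrays but differed between them. Replicate 1 gave a signal of 541 ± 54.4 intensity units and replicate 2 gave 950 ± 95.2, where each error is the software's estimate for that spot. Replicate 2 was the higher. Scaled as log2 relative to the 75th percentile of its array, the values were 0.74 and 1.67, a mean of 1.20 ± 0.66 (SD, n = 2). The scaled difference of -0.93, replicate 1 minus replicate 2, corresponds to 1.91-fold and to 4.54 combined spot errors. Of all 11496 detected genes, 0.983% were at least as far apart. Under the other scalings, the normexp correction and the authors' deposited table, the difference lay between -0.97 and -0.70, in the same direction.

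Kcnn4 was well above background with nearly equal values on the arrays. Its signal was 4579 ± 458 units on replicate 1 and 4320 ± 432 on replicate 2, which gave scaled values of 3.82 and 3.85 and a mean of 3.84 ± 0.02 (SD, n = 2). The difference of -0.03 was 0.17 combined spot errors, and 12.2% of all detected genes were at most as far apart. Under the other scalings, normexp and the authors' deposited table, the Kcnn4 difference lay between -0.07 and 0.19. The 0.19 came with the array median, where all detected genes had a median difference of 0.26. Kcna3 and Kcnn4 were each measured with 1 probe, so agreement between probes could not be checked for either. Because probes differ in how strongly they hybridise, the higher signal of the Kcnn4 probe does not say that its transcript was more abundant than that of Kcna3. Both channels were above the brightest negative control spot of each array, at 15.1 units on replicate 1 and 101 on replicate 2.

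In the Shaker subfamily of voltage-gated channels, Kcna3 was 1 of 5 detected genes of 8, a share not far from the 51.7% of all named genes. Kcna2, a delayed rectifier of axons, had signals of 180 and 257 units on replicate 1 and replicate 2, and scaled values of -0.85 and -0.22. Kcna4, which forms fast-inactivating channels, had 1845 and 1116 units on its probe with the TG run, and scaled values of 2.51 and 1.90. Replicate 2 was the higher for Kcna2 and replicate 1 for Kcna4. Kcna7, known from muscle, had 181 and 151 units with 1 of its 2 probes. Kcna6 had 271 and 270 units with the probe that has no mapped position and ends in A, while its other probes, both mapped to chromosome 6 and taken from another transcript record, gave 6.44 to 7.96 units and were not well above background. Kcna1, Kcna5 and Kcna10 were not well above background on either array.

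The remaining voltage-gated pore genes of the Shab, Shaw and Shal subfamilies gave 1 detected gene of 9. This was Kcnd1, a Shal channel of the transient A type, at 334 and 333 units, with scaled values of 0.04 and 0.16. It was detected with 1 of its 3 probes. Among those not well above background on either array were Kcnb2, Kcnc1, Kcnc2, Kcnc4, Kcnd2 and Kcnd3. The electrically silent subunits, which modify Shab channels without forming channels of their own, had 0 of 10 detected. Among them Kcng2 passed on replicate 2 alone, with 14.9 units on replicate 1 and 34.9 on replicate 2, and Kcnf1, Kcng1, Kcng3, Kcng4, Kcns1, Kcns2, Kcns3, Kcnv1 and Kcnv2 passed on neither.

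Ether-a-go-go and KCNQ pore genes had 5 of 13 detected. Kcnh3, a channel known from forebrain neurons, had signals of 9321 units on replicate 1 and 6973 on replicate 2, with scaled values of 4.85 and 4.55 and a mean of 4.70 ± 0.21 (SD, n = 2). Its probe holds ATTAAA at 2 places in its last bases, printed in capitals above. Kcnh2, the hERG channel that repolarises the heart, had 162 and 185 units, and Kcnh4 had 117 and 103 with 1 of its 2 probes. Kcnq5, a channel of the neuronal M current, had 182 and 177 units with 1 of 3. Each of the 4 genes named here differed between the arrays by less than 2 combined spot errors. Kcnh1, Kcnh5, Kcnh6, Kcnh7, Kcnh8, Kcnq1 and Kcnq3 were not well above background on either array. The Kcnh8 probes lie on both strands of chromosome 17, and which of them reads its transcript was not tested.

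Kcnn4 was the detected gene among the 8 pore genes opened by calcium, sodium or alkaline pH. Its relatives of small conductance, Kcnn1, Kcnn2 and Kcnn3, were not well above background, nor was Kcnma1, the pore of the large-conductance calcium-activated channel, with any of its 3 probes. The sodium-activated Kcnt1 and Kcnt2 and the sperm channel Kcnu1 were not either. The large-conductance channel's accessory subunit Kcnmb4 was detected with both of its probes, at 516 and 416 units with the first and 132 and 181 with the second, while Kcnmb1, Kcnmb2 and Kcnmb3 were not. In this subfamily the accessory subunit was thus above background and the pore gene it is known to join was not.

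Tandem-pore leak channels, which set the resting potential, had 4 of 14 detected. Kcnk4, the mechanosensitive channel TRAAK, had 367 and 381 units with 1 of its 2 probes. Kcnk5, an alkaline-activated channel, had 138 and 141 units. Kcnk13 had 108 and 77.4 units and Kcnk7, for which no current is known, 77.3 and 93.8. The last 2 were below the brightest negative control of replicate 2 on that array. Kcnk15 passed on replicate 1 alone, with 37.2 units against 31.5 on replicate 2, and Kcnk1, Kcnk2, Kcnk3, Kcnk6, Kcnk9, Kcnk10, Kcnk12, Kcnk16 and Kcnk18 passed on neither. Inward rectifiers had 1 of 15 detected, Kcnj13, known from the retinal pigment epithelium, at 158 and 105 units with the first of its probes and 63.2 and 78.8 with the second. Kcnj1, Kcnj2, Kcnj3, Kcnj4, Kcnj5, Kcnj6, Kcnj8, Kcnj9, Kcnj10, Kcnj11, Kcnj12, Kcnj14, Kcnj15 and Kcnj16 were not well above background.

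Accessory and regulatory genes had 5 of 17 detected. The cytosolic beta subunits, which bind Shaker channels such as Kv1.3, had 2 of 3. Kcnab2 had 67.9 and 70.5 units and Kcnab3 173 and 169, and Kcnab1 was not well above background. Of the KCNE subunits, which span the membrane a single time, Kcne1l had 45.9 and 64.1 units with 1 of its 2 probes. Kcne1, Kcne2, Kcne3 and Kcne4 were not well above background on either array. Kcnrg, whose product interferes with the assembly of voltage-gated channels, had 70.2 and 54.2 units with the first of its probes and 60.8 and 49.999 with the second. The Kcnip genes, whose calcium-binding products join Shal channels such as that of Kcnd1, had 0 of 4 detected. The remaining member is not a channel gene: Kcnq1ot1 is an imprinted non-coding RNA transcribed antisense to Kcnq1. It was detected with both probes, at 2100 and 949 units with the probe printed above and 59.7 and 44.6 with the other. Kcnq1 itself was not well above background on either array with its 2 probes.

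**Figure D2:**
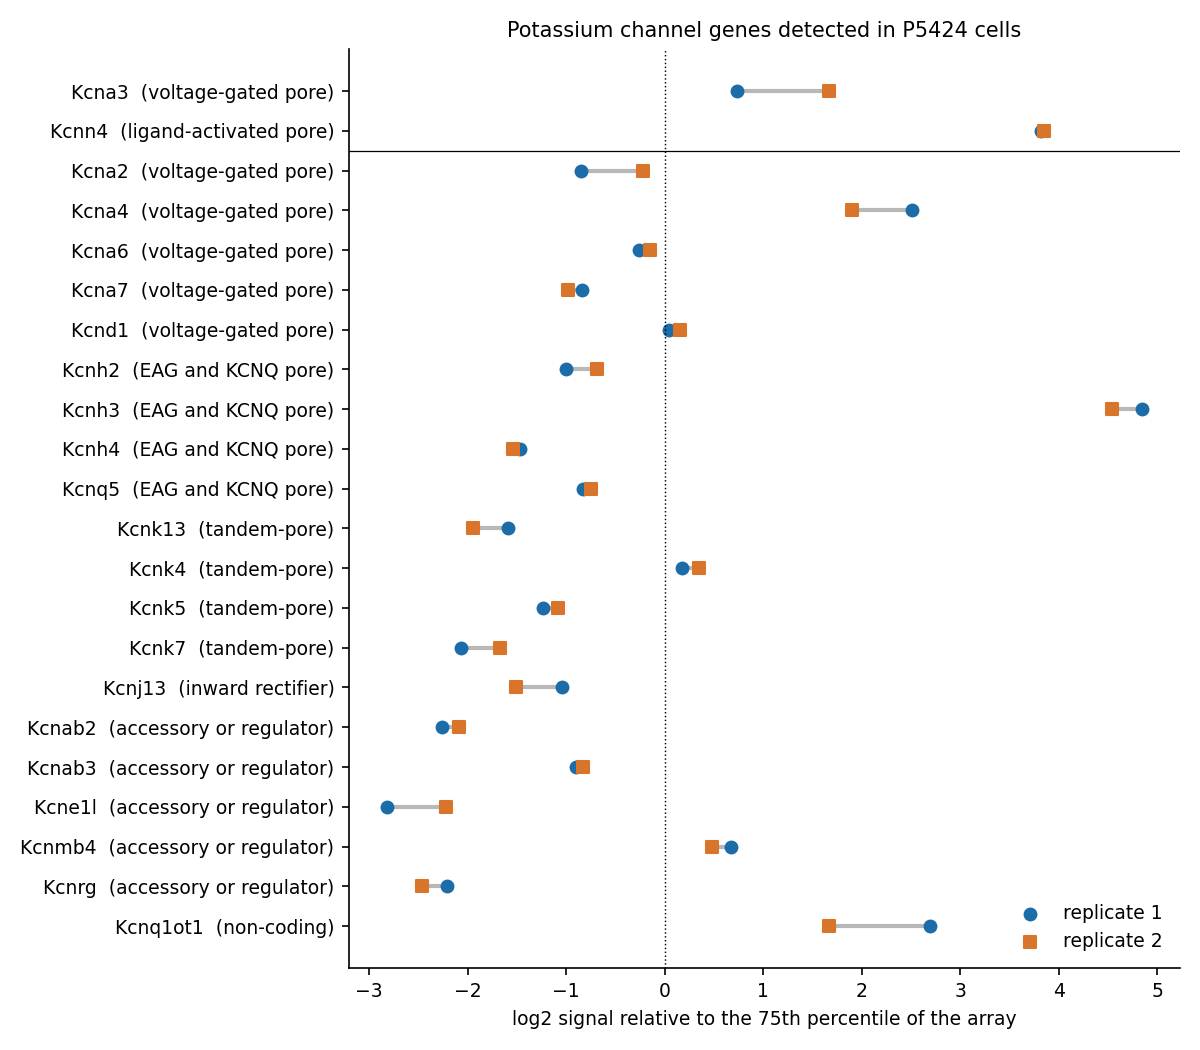
Scaled log2 signal (x axis, 0 is the 75th percentile of the array) of 22 of the 23 detected genes (y axis), with a circle for replicate 1 and a square for replicate 2, and Kcna3 and Kcnn4 above the line. The points of Kcnn4 nearly coincide, whereas those of Kcna3 and Kcnq1ot1 lie about 1 log2 unit apart in opposite directions; the probes of different genes are not on a common scale of abundance.

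The detected members were close to the detection limit in part. Their signals had a median of 181 units on replicate 1 and 185 on replicate 2, where all detected genes had medians of 1445 and 1300. On replicate 2, 5 of the 23 were below the brightest negative control spot, namely Kcnab2, Kcne1l, Kcnk7, Kcnk13 and Kcnrg, against 11.5% of all detected genes. Leaving such genes out gave 18 of 95 members detected, against 45.8% of all named genes. The 112 probes well above background on neither array reached at most 33.5 units on replicate 1 and 38.5 on replicate 2. Their medians were 6.97 and 8.25, beside medians of 6.55 and 7.50 over the 308 negative control spots. Some of these probes were still marked positive and significant on both arrays by the software. For probes near the control medians the signal is an upper bound and not a level. When the software's flag for a positive and significant signal on both arrays was taken instead, 53 of 95 members were detected, against 67.5% of all named genes, so the count depends on the criterion while the share stayed below that of all genes.

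Probes of the same gene often disagreed. Of the 12 detected members with several probes, 8 were detected with some probes and not others, against 34.2% of all detected genes with several probes. Among them were Kcna6, Kcna7, Kcnd1, Kcne1l, Kcnh4, Kcnk4 and Kcnq5. Kcnj13, Kcnmb4, Kcnq1ot1 and Kcnrg were detected with every probe. Requiring every probe left 15 of 95 members, against 44.6% of all named genes. Both Kcnj13 probes were detected but moved in opposite directions between the arrays, with scaled differences of 0.47 and -0.44, and so did those of Kcnmb4, with 0.19 and -0.58. The probes within a gene come from different transcript records or positions, and which of them represents the transcript in these cells was not tested.

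**Figure D3:**
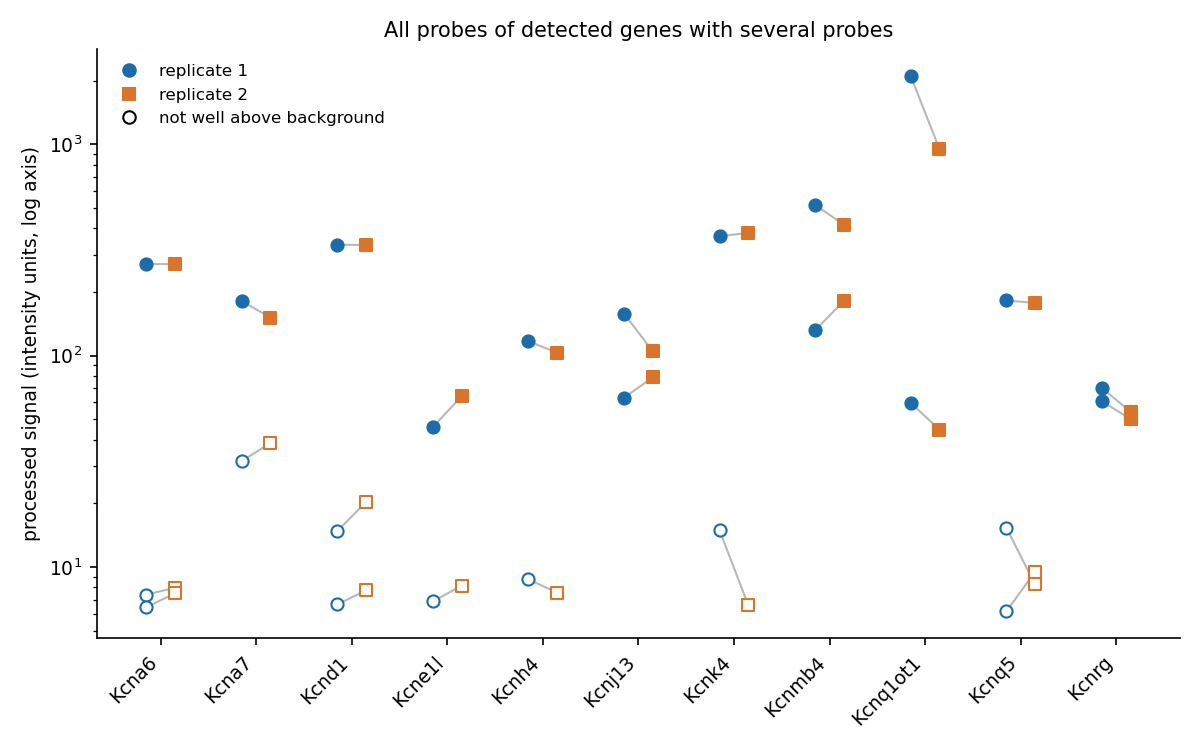
Processed signal (y axis, intensity units on a log scale) of every probe of 11 of the 12 detected genes with several probes (x axis), with circles for replicate 1, squares for replicate 2, lines joining the same probe and open symbols for probes not well above background. In 7 genes filled and open symbols occur side by side, and the lines of the Kcnj13 and of the Kcnmb4 probes slope in opposite directions.

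Some detected members lie across other genes that were also detected, about as often as other genes do. In the RefSeq annotation, used for neighbours alone, 5 of the 23 detected members overlap another detected gene (21.7%), against 18.3% of all detected genes. Of the 72 other members 3 overlap a detected gene (4.17%), against 7.55% of all genes that were not detected on both arrays. Kcnh3 overlaps Mcrs1, a gene of the opposite strand with signals of 14711 and 12355 units, and Kcnj13 overlaps Gigyf2, also opposite, with 3910 and 3553. Kcnk7 overlaps Ehbp1l1, Kcnab2 overlaps Nphp4 and Kcnrg overlaps the non-coding Dleu2, each on the opposite strand. Kcnrg also overlaps Trim13 on its own strand, which was not detected. Whether RNA of the overlapping genes contributed to these signals was not tested. Neither Kcna3 nor Kcnn4 overlaps another gene measured on the array.

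Between the arrays, Kcna3 and Kcnq1ot1 were the detected members furthest apart, in opposite directions. The detected members had a median difference of -0.08, replicate 1 minus replicate 2, with 9 higher on replicate 1 and 14 higher on replicate 2, where all detected genes had a median of 0.03. The median of the absolute difference was 0.25 for the members and 0.16 for all detected genes. When each array's median was used as the scale, the median difference was 0.15 for the members and 0.26 for all detected genes, and the members' split became 17 and 6. Replicate 1 was higher by the most for Kcnq1ot1 (2.04-fold), Kcna4 (1.52-fold) and Kcnj13 (1.39-fold), and replicate 2 for Kcna3 (1.91-fold), Kcna2 (1.55-fold) and Kcne1l (1.52-fold). The other detected probe of Kcnj13 went the other way, and the mean of its probes gave a difference of 0.02. Kcnq1ot1 was the member over 2-fold apart, 1 of 23, against 0.783% of all detected genes in either direction, 0.252% with replicate 1 higher and 0.531% with replicate 2 higher. It was no longer over 2-fold apart with the percentile of detected probes (0.99), normexp (0.97) or the mean of its probes (0.66). Differences of over 2 combined spot errors were found in 4 of 23 members, Kcnq1ot1, Kcna3, Kcna4 and Kcna2, against 10.0% of all detected genes. With 1 array a replicate, no test per gene was possible.

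**Figure D4:**
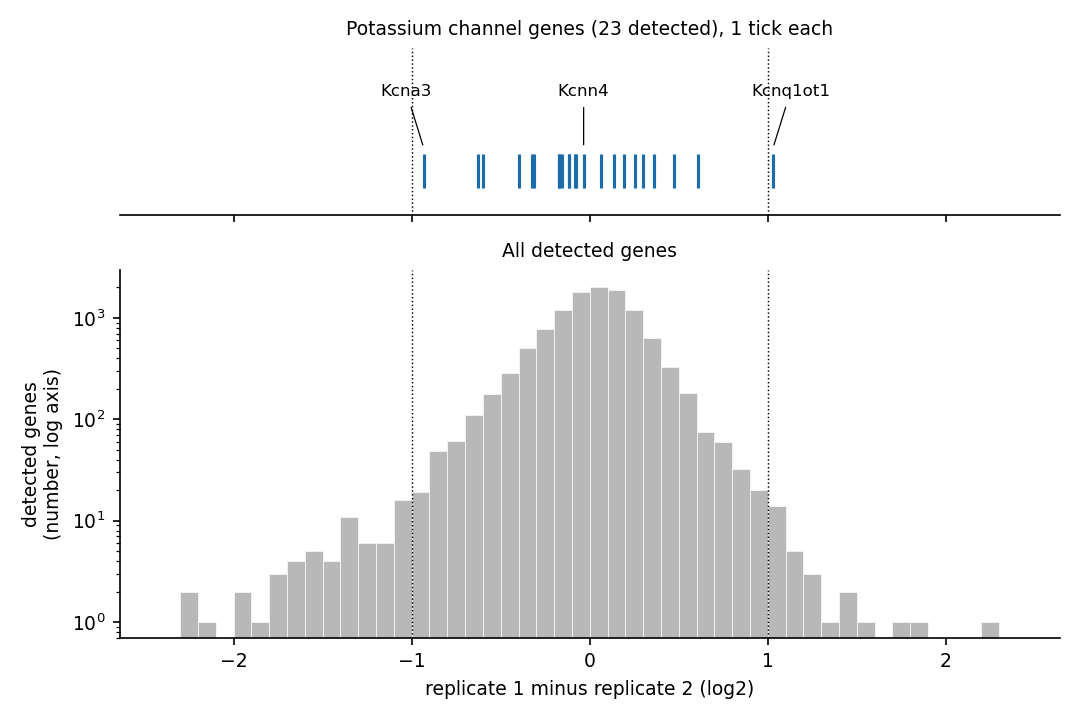
Difference between the arrays (x axis, replicate 1 minus replicate 2, log2) for the 23 detected potassium channel genes (top, 1 tick each) and for all 11496 detected genes (bottom, number per bin of 0.1 on a log axis), with dotted lines at a 2-fold difference. Kcnn4 sits near 0, Kcna3 at -0.93 and Kcnq1ot1 at 1.03.

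Genes that act with these channels in T cells were read beside the 51.7% of all named genes that were detected. The lists were chosen with earlier results of these data known. Their shares were not weighted for the number of probes per gene, which raises the chance of detection. Of 21 genes of calcium entry and clearance, 19 were detected (90.5%), including the store-operated channel genes Orai1 (scaled value -0.45 ± 0.02), Orai2 (1.70 ± 0.19) and Orai3 (3.05 ± 0.13) and the calcium sensor gene Stim1 (4.32 ± 0.03; SD, n = 2 throughout). Trpc1 was among the 2 that were not well above background. Of 16 genes listed as regulators of Kv1.3 or KCa3.1, whether direct or indirect, 13 were detected (81.3%). They included Calm2 and Calm3, which encode the calmodulin that serves as the calcium sensor of KCa3.1, at 6.98 ± 0.02 and 5.21 ± 0.16, and Nme2, whose product activates KCa3.1 by histidine phosphorylation, at 9.02 ± 0.03. Pik3c2b passed on 1 array, and Cttn and Cav1 on neither. Of 30 genes of other potassium and chloride transport, 20 were detected (66.7%), against 54.1% of protein-coding genes, among them the sodium pump subunits Atp1b1 (1.95 ± 0.05) and Atp1b2 (1.84 ± 0.08). Abcc8, named after its values were seen, encodes a partner of the inward rectifiers of Kcnj8 and Kcnj11. It had 125 and 109 units, while neither rectifier gene was well above background.

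Of the listed T-lineage genes, 18 of 18 were detected, against 51.7% of all named genes. The list was chosen with earlier results of these data known, so the count is not an independent check of the T-cell label. The antigen receptor subunits Cd3e, Cd3d, Cd3g and Cd247 had scaled values of 8.31 ± 0.17, 8.91 ± 0.06, 7.17 ± 0.03 and 1.83 ± 0.51. Because most potassium channels are known from excitable or epithelial cells, markers of these were read beside them. Of 14 neuronal genes, Snap25 (4.01 ± 0.07), Tubb3 (-0.02 ± 0.16) and Elavl4 (2.61 ± 0.02) were detected, Map2 and Slc17a7 passed on 1 array and 9 on neither. Of 12 heart and skeletal muscle genes, Des was detected (31.2 and 40.4 units) and Actn2 and Nppa passed on 1 array. Of 10 epithelial genes 0 were detected and Aqp2 and Vil1 passed on 1 array. For B cells the count was 3 of 8 (Cd79a at -2.74 ± 0.11, Blnk at 677 and 573 units and Cd22 at -1.44 ± 0.18), with Cd79b on 1 array and Ms4a1, Pax5 and Ebf1 among those on neither. For myeloid cells it was 4 of 10, and Itgam, an integrin subunit, stood far above background with 6292 units on replicate 1 and 6868 on replicate 2 (4.40 ± 0.17). Csf1r was at -1.61 ± 0.63, Cd14 at -2.76 ± 0.13 and Elane at -1.27 ± 0.32, with Mpo and Adgre1 on 1 array and Lyz2, Spi1, Cebpa and Fcgr1 on neither. Their part in the signals of the potassium channel genes was not tested.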

How the data were processed

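Total RNA was labelled with Cy3 (200 ng per sample, per the labels) and hybridised to 2 arrays. Per the file headers, the authors made the intensity values with Agilent Feature Extraction 10.5.1.1, which took off a spatially fitted background, corrected a multiplicative trend and put surrogates in place of signals near background, without scaling between arrays. The authors also deposited a table of log2 values with medians of 5.18 on both arrays, whose offset and background step are not given in the sources used here. Its rows matched the scanner spots by number (Pearson r = 1.000 on both arrays, across spots) and it served as an alternative.

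Processed intensities were put on the log2 scale and spots of the same probe were averaged, without spots flagged as outliers (182 and 186, none of them of a member), and the array's 75th percentile, 324 and 299 units, was subtracted. Detection needed the flag on at least 50% of a probe's spots on both arrays. The software flagged 42.5% and 41.2% of the probes, 0 and 1 of 308 negative control spots, and no spot as saturated. Each gene took the value of whichever of its detected probes had the highest mean. The combined spot error is the root of the summed squared relative errors of both arrays. Genes were named through accessions, symbols or synonyms in a RefSeq table of GRCm38.p6, where all 95 members were found. Strands came from probe coordinates and the RefSeq promoter table.

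Named are the members, by whether they were detected, the first 4 detected genes of each list, every gene of a list's class of 5 or fewer, and the members furthest apart between the arrays; a few genes that these rules take are not reported here. The members and lists were chosen with earlier results of these data known. The steps were tested on simulated data. Alternatives covered detection, scaling, background (normexp with offset 50 and quantile normalization, limma 3.58.1), probe choice and each array left out. The number of arrays limits the precision.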

Additional observations from a re-analysis of the deposited data

How the results depend on the processing

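Of the counts, the 23 detected genes and 27 detected probes became 53 and 63 when signals had to be positive and significant, and 15 genes with every probe required. They moved by less than 1.5 times when 1 array sufficed (27 and 31), when a signal above the brightest negative control was required (18 and 19) and when flagged spots were kept (23 and 27). With either array left out, 25 to 25 genes and 29 to 29 probes were detected, which shared the 23 genes of the full count, and Kcna3 lay between 0.74 and 1.67 and Kcnn4 between 3.82 and 3.85. Kcna3 and Kcnn4 took values of -2.31 and 0.32 relative to the 75th percentile of detected probes and of 5.20 and 7.83 relative to the array median, shifts that come from the scale's own zero. Kcnn4 was at 3.41 with normexp and 3.88 in the authors' deposited table. The number of members over 2-fold apart was 1, and became 3 when 1 array sufficed (Kcng2 among those added), 6 with a positive and significant signal, and 0 with the percentile of detected probes, with normexp or with the mean of detected probes. The median difference of the members, -0.08, reversed to 0.15 with the array median and stayed between -0.12 and -0.07 otherwise. No paired analysis was possible because there was 1 group. Genes near background are limited by signal over background, and every value by the 2 arrays.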

Other observations

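The array carries 5 further probes whose name is spelled KCNQ1ot1 in the files and which the naming rule therefore did not take. They lie between positions 150481806 and 150482398 of chromosome 7 on mm9, on the + strand, whereas both Kcnq1ot1 probes of the family lie on the - strand. On both arrays 2 of the 5 were well above background, 2 on 1 array and 1 on neither. The probe at chr7:150482141-150482200 had signals of 364 units on replicate 1 and 346 on replicate 2, with a scaled value of 0.19 ± 0.03 (SD, n = 2). The probe at chr7:150482339-150482398 had 41.0 and 55.5 units. By these coordinates the 5 probes lie on the strand opposite to that of the Kcnq1ot1 probes of the family. Which strand they read, and what was transcribed there, was not tested. A further 2 probes under other names are assigned to Kcnk9 and Kcnmb4os1 by the reference, and neither was well above background on either array.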
